A study of Homo sapiens with 6 samples.

Results

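The aminoacyl-tRNA synthetase genes were examined in RNA-seq of F36P cells, a human leukaemia line that needs cytokine to grow and has erythroid features. The 38 genes were chosen by name from the 16315 genes of the deposited count table, with earlier results of these data known. A cytosolic set of 22 holds 19 synthetase genes and the scaffold genes AIMP1, AIMP2 and EEF1E1, and a mitochondrial set of 16 holds the genes whose names end in 2. All 38 passed the filter on low counts. The cells carried a CRISPR guide against HDAC7, a class IIa histone deacetylase (sgHDAC7, genotype given as HDAC7 knockout), or a non-targeting guide (sgNT, genotype given as WT), with 3 libraries each. Both groups were transduced with a plasmid for puromycin resistance and selected in 1 µg/ml puromycin for 4 days. The labels call the libraries biological replicates without saying whether cultures were grown apart, so p-values measure the spread between these libraries. They do not say whether the cells were clones or a pool, and neither HDAC7 protein nor edited alleles were measured.

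Library totals ran from 10039693 to 12521195 counts. HDAC7 messenger RNA had 194, 238 and 246 CPM (the count relative to the library total, scaled by TMM) in sgHDAC7, against 449, 460 and 461 CPM in sgNT, or 49.5% of the sgNT mean (edgeR log2 fold change -1.02 ± 0.09 SE, adjusted p = 0.00139). By an exact permutation test over the libraries, two-sided, p was 0.1, the lowest possible with 3 against 3. In each group the replicate 1 library lay far from the other two, so values are also given for replicate 1 and for replicates 2 and 3. All 9 erythroid markers were in the table. Their summed level was 13852 to 18186 CPM in sgHDAC7 and 9591 to 14041 CPM in sgNT, and the part of that shift in the results was not tested. Of 4 T lymphoid, 3 B lymphoid, 4 monocyte and 3 fibroblast markers, 1, 2, 1 and 1 were in the table, with summed levels of at most 1.45, 19.1, 95.3 and 1.64 CPM in sgHDAC7 and 1.26, 17.3, 105 and 2.75 CPM in sgNT.

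Aminoacyl-tRNA synthetases join each amino acid to its tRNA, the step that supplies the ribosome. Cytosol and mitochondria have mostly separate nuclear-encoded enzymes for the same amino acid, while GARS1 and KARS1 serve both compartments. Several cytosolic enzymes sit in the multisynthetase complex, held together by AIMP1, AIMP2 and EEF1E1. When amino acids are short, uncharged tRNA activates the kinase GCN2 (EIF2AK4), which phosphorylates eIF2 and raises translation of ATF4. ATF4 is known to raise genes of amino acid synthesis and transport and many cytosolic synthetase genes, through C/EBP-ATF response elements.

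The promoter windows of the 38 genes were searched on both strands for the letters TGATGNAA, the core of that response element. Windows ran from 250 bases before to 50 after each RefSeq transcript start (GRCh38.p14) and were found for 33 of the 38 genes. LARS1, VARS1, YARS1, AARS2 and VARS2 are named only. A match was found in 7 of 19 cytosolic genes and in 1 of 14 mitochondrial genes, against 4.46% of all 27305 genes with a window (3.62% of 35116 windows). The 8 matches are shown because the values of the genes that hold them are compared with those of the others. Each is given 5′ to 3′ on the gene's strand, with 11 bases on either side in lower case and the match in capitals (TTGCATCA is TGATGCAA read on the other strand).
AARS1 (chr16:70289675-70289704, minus strand): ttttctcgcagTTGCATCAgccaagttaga
CARS1 (chr11:3057407-3057436, minus strand): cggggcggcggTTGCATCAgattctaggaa
GARS1 (chr7:30594834-30594863, plus strand): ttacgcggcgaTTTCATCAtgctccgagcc
IARS1 (chr9:92293692-92293721, minus strand): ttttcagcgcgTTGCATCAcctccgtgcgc
MARS1 (chr12:57488053-57488082, plus strand): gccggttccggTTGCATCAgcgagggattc
NARS1 (chr18:57621804-57621833, minus strand): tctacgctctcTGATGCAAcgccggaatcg
TARS1 (chr5:33440956-33440985, plus strand): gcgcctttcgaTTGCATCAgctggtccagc
YARS2 (chr12:32756076-32756105, minus strand): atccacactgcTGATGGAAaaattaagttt
Of the 7 cytosolic matches, 6 lay between 33 bases before and 22 bases after a transcript start, and the AARS1 match began 187 bases before it. TGATGCAA was the form in 6 of the 7, and GARS1 had TGATGAAA. GARS1, CARS1 and TARS1 have a second annotated start whose window held no match. A palindromic cyclic AMP response element (TGACGTCA) was searched for comparison and occurred in AIMP2 alone among these genes, against 2.25% of all genes. A match describes letters in a window and not binding.

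**Figure D1:**
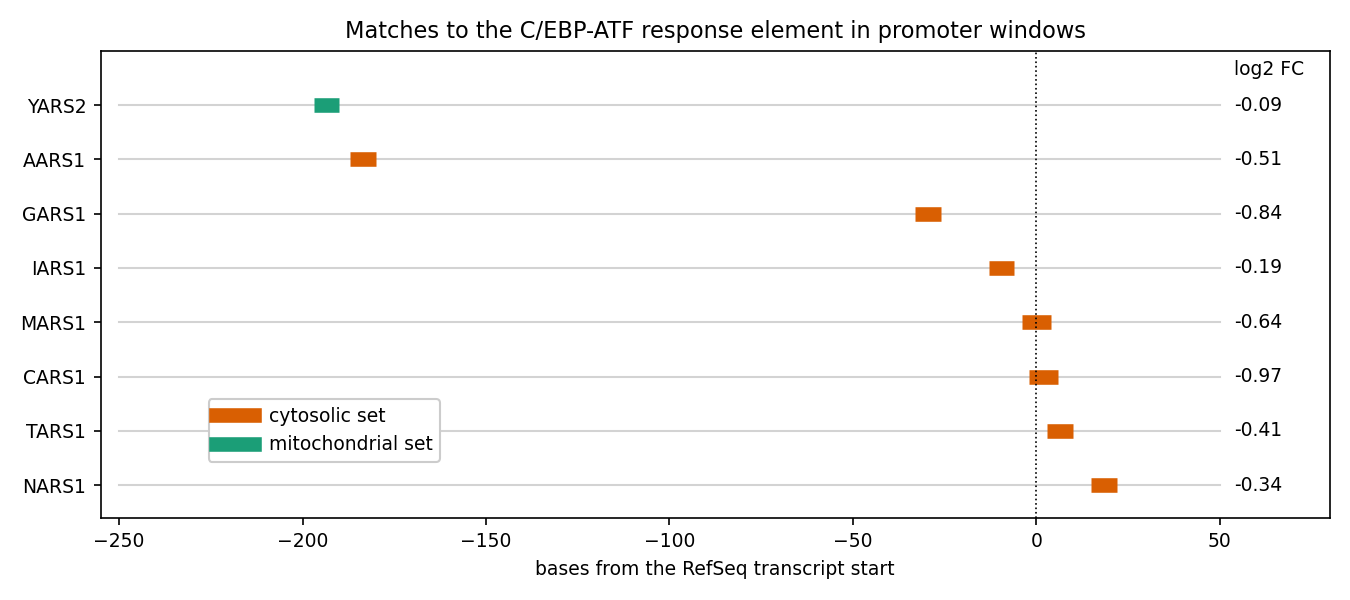
Position of each match to TGATGNAA (coloured block) in the promoter windows, in bases from the RefSeq transcript start (dotted line), with the edgeR log2 fold change of sgHDAC7 over sgNT at the right. Of the 7 cytosolic blocks, 6 lie within 33 bases of the start, and all 7 genes have log2 fold changes below 0, from -0.97 in CARS1 to -0.19 in IARS1.

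Cytosolic synthetase messenger RNAs were lower in sgHDAC7, in a part of the set. WARS1, CARS1, GARS1, MARS1, YARS1 and TARS1 fell, which is 6 of 22 cytosolic genes, against 1.7% of all 13841 genes tested that were called lower (edgeR adjusted p under 0.05). They are also the only ones of the 38 called in either direction, against 2.86% of all genes. Every sgHDAC7 library lay below every sgNT library in 9 of the 22, against 12.2% of all genes, and the groups did not overlap in 15 of the 38 in either direction, against 25.1%. The 6 that fell were 1.33-fold to 2.01-fold lower in sgHDAC7 than in sgNT. No cytosolic gene was called higher (1.16% of all genes were), and DESeq2 and limma also called 0. None was higher at an unadjusted edgeR p under 0.05, against 1270 of all 13841 genes. The median log2 fold change of the cytosolic set was -0.21, with a range from -1.004 to 0.24, against -0.0016 over all genes. In bulk RNA, fewer cells of a type and less RNA per cell cannot be told apart.

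**Figure D2:**
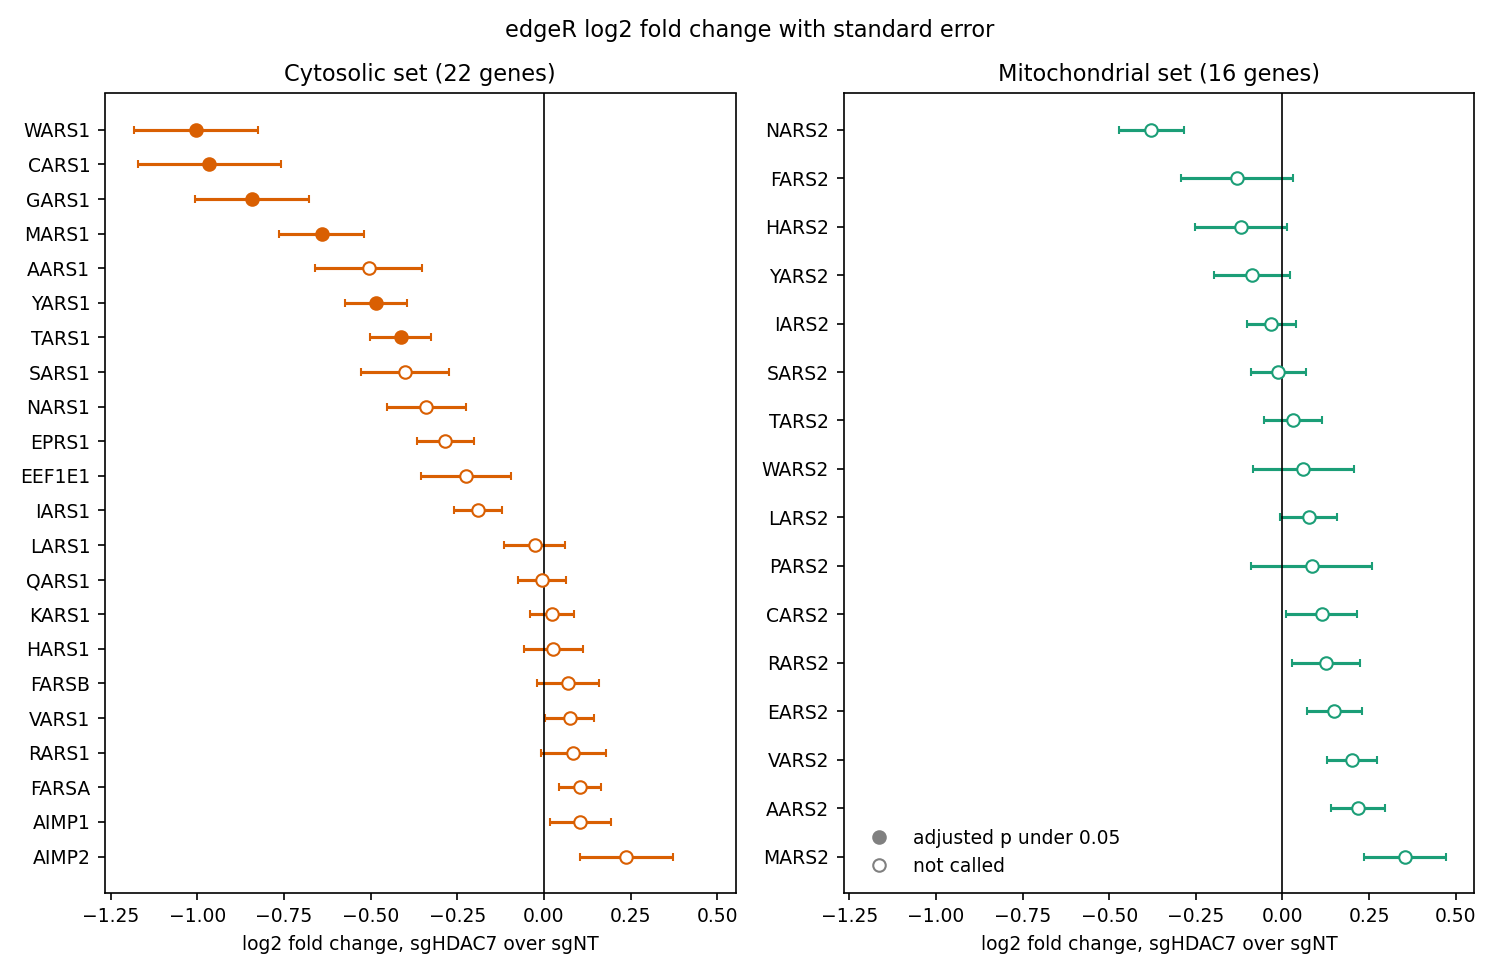
edgeR log2 fold change of sgHDAC7 over sgNT (horizontal axis, with standard error, 3 libraries each) for the 22 cytosolic and 16 mitochondrial genes. Filled points are the 6 genes with an adjusted p under 0.05, all cytosolic and all below 0.

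WARS1 (14:100333788-100376805, minus strand), the tryptophan enzyme and a gene known to be induced by interferon gamma, was the lowest of the 38 relative to sgNT. It had 239, 248 and 253 CPM in sgHDAC7, against 329, 570 and 584 CPM in sgNT. All sgHDAC7 libraries lay below all sgNT libraries, and sgNT replicate 1 was the nearest control. The log2 fold change was -1.004 ± 0.18 (edgeR adjusted p = 0.0259), a 2.01-fold lower level. Its windows held no match to TGATGNAA.

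CARS1 (11:3000922-3057613, minus strand), the cysteine enzyme, had 59.3, 57.5 and 57.8 CPM in sgHDAC7, against 70.7, 130 and 140 CPM in sgNT. Its sgHDAC7 libraries were within 2 CPM of each other, while sgNT replicates 2 and 3 were nearly double replicate 1. The log2 fold change was -0.97 ± 0.21 (edgeR adjusted p = 0.0423), and limma did not call it (adjusted p = 0.0577).

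GARS1 (7:30594681-30634033, plus strand), which charges glycine in both compartments, had 127, 122 and 117.5 CPM in sgHDAC7, against 153, 256 and 248 CPM in sgNT. The groups did not overlap (log2 fold change -0.84 ± 0.16, edgeR adjusted p = 0.0317). MARS1 (12:57475445-57517569, plus strand) charges methionine for both initiation and elongation and is the only gene of the complex among the 6. It had 209, 202.5 and 200.3 CPM in sgHDAC7, against 248.9, 346.5 and 359 CPM in sgNT (log2 fold change -0.64 ± 0.12, edgeR adjusted p = 0.029). Again all sgHDAC7 libraries were lower, and sgNT replicate 1 lay between the groups.

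YARS1 (1:32775237-32818153, minus strand), the tyrosine enzyme, had 277, 289 and 276 CPM in sgHDAC7, against 337, 418 and 422 CPM in sgNT. It was 1.40-fold lower with no overlap (log2 fold change -0.48 ± 0.09, edgeR adjusted p = 0.0277). TARS1 (5:33440696-33469539, plus strand), the threonine enzyme, had 246.5, 234 and 249.1 CPM in sgHDAC7, against 279, 351 and 341 CPM in sgNT. It was 1.33-fold lower, also without overlap (log2 fold change -0.41 ± 0.09, edgeR adjusted p = 0.0423).

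A further 5 cytosolic genes had log2 fold changes from -0.51 to -0.19 and were not called with group alone. AARS1, the alanine enzyme, had 178, 183 and 170 CPM in sgHDAC7, against 179, 277 and 298 CPM in sgNT (log2 fold change -0.51 ± 0.16, edgeR adjusted p = 0.115). Its sgNT replicate 1 lay inside the sgHDAC7 range, so the groups overlapped. SARS1, the serine enzyme, had 151, 150 and 147 CPM in sgHDAC7, against 151, 220 and 220 CPM in sgNT (-0.40 ± 0.13, edgeR adjusted p = 0.126). Its replicate 1 libraries differed by a log2 ratio of -0.0034.

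NARS1, the asparagine enzyme, had 221, 243 and 248.7 CPM in sgHDAC7, against 242, 325 and 333.5 CPM in sgNT (log2 fold change -0.34 ± 0.11, edgeR adjusted p = 0.144). EPRS1 joins a class I and a class II enzyme in a single chain and charges glutamate and proline. It had 299, 307.5 and 316 CPM in sgHDAC7, against 331 (replicate 1), 411 and 382 CPM in sgNT (-0.28 ± 0.08, edgeR adjusted p = 0.0956). IARS1, the isoleucine enzyme, had 204, 220.1 and 211 CPM in sgHDAC7, against 224, 256 and 245 CPM in sgNT (-0.19 ± 0.07, edgeR adjusted p = 0.175). EPRS1 and IARS1 did not overlap between the groups, and NARS1 did.

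**Figure D3:**
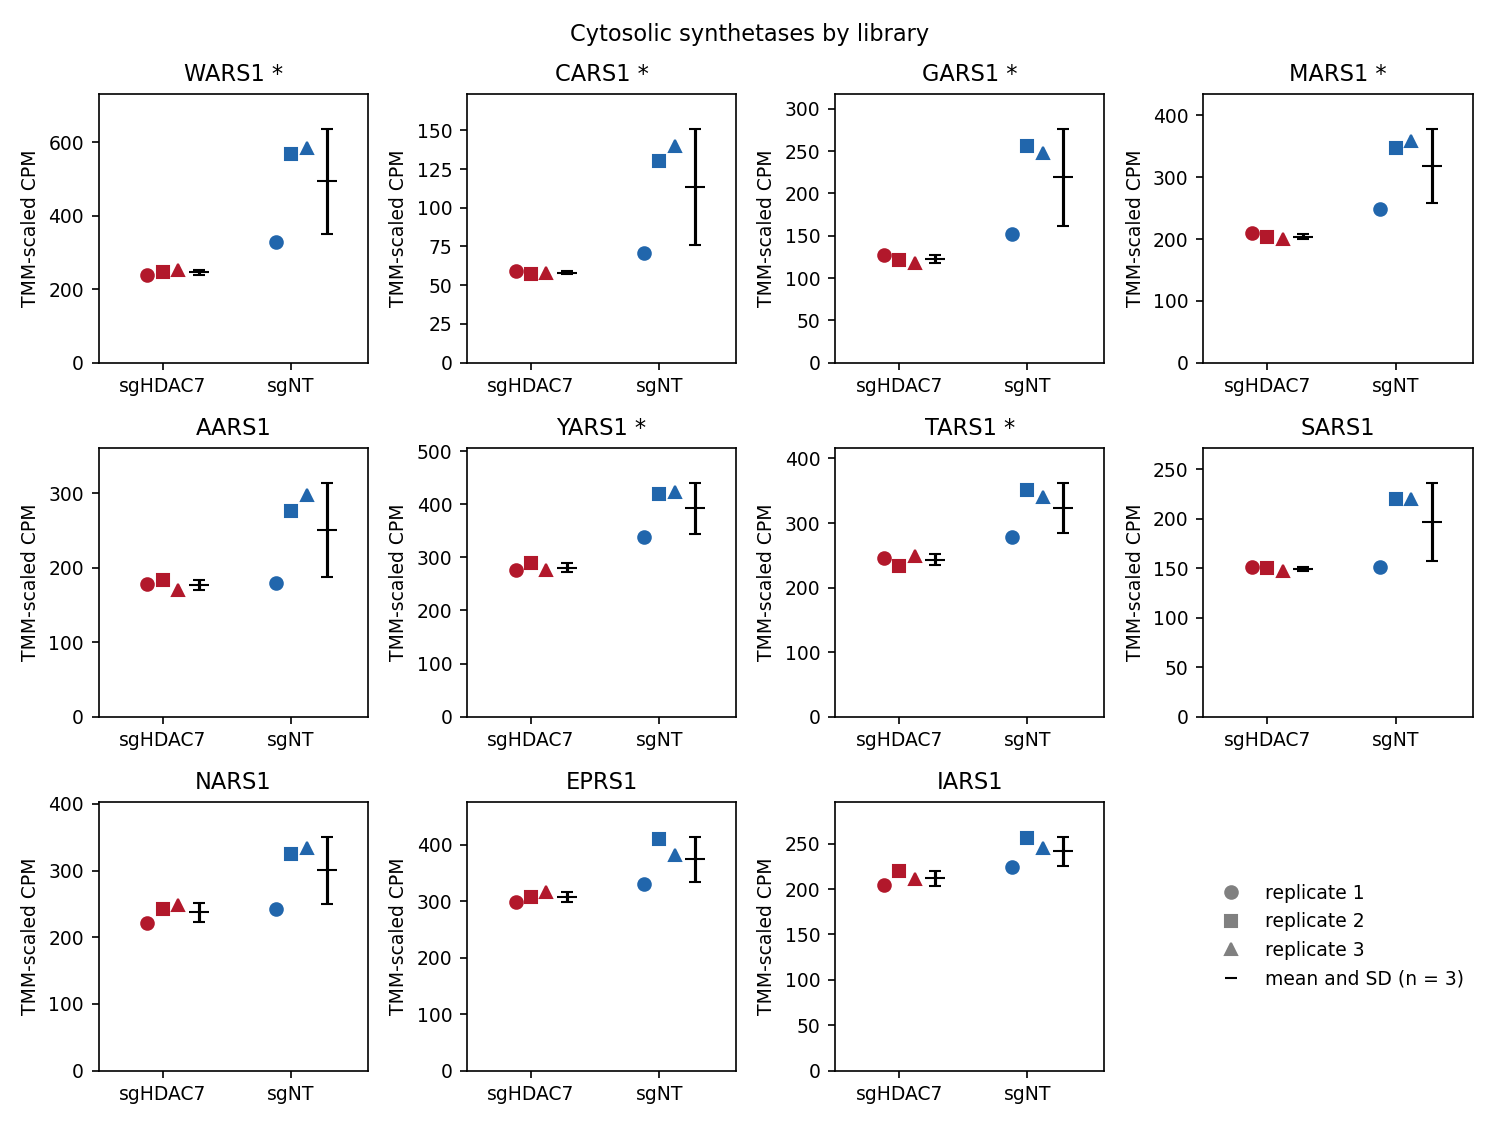
Level of 11 cytosolic synthetase genes in every library (TMM-scaled CPM, vertical axes from 0), with mean and SD of 3 libraries per group, and stars on the 6 called with group alone. The sgHDAC7 libraries lie close together, sgNT replicates 2 and 3 are highest, and sgNT replicate 1 lies between them or level with sgHDAC7, as for AARS1 and SARS1.

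The other cytosolic synthetases stayed near the level of all genes. FARSA and FARSB, the alpha and beta subunits of the phenylalanine enzyme, had log2 fold changes of 0.10 ± 0.06 and 0.07 ± 0.09. FARSA had 395, 403 and 395.5 CPM in sgHDAC7, against 392, 356 and 363 CPM in sgNT. It was the only cytosolic gene with all sgHDAC7 libraries above all sgNT libraries. VARS1 (valine), RARS1 (arginine), HARS1 (histidine), KARS1 (lysine), QARS1 (glutamine) and LARS1 (leucine) ranged from -0.03 to 0.09, with adjusted p from 0.616 to 0.978 by edgeR. KARS1 had 268, 278 and 281 CPM in sgHDAC7, against 280, 254.5 and 279 CPM in sgNT, and VARS1 had 271, 256 and 247 CPM in sgHDAC7, against 243, 230.0 and 262 CPM in sgNT. Both overlapped between the groups.

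The cytosolic genes were also grouped by place in the multisynthetase complex. Of 7 complex synthetases 1 fell (MARS1), and of 12 synthetases outside it 5 fell, against 1.7% of all 13841 genes called lower. Their median log2 fold changes were -0.03 and -0.41. The scaffold genes AIMP1, AIMP2 and EEF1E1 stood at 0.11 ± 0.09, 0.24 ± 0.13 and -0.22 ± 0.13. None of these 3 was called by edgeR, by DESeq2 or by limma, or had an unadjusted edgeR p under 0.05. AIMP2 had 21.2, 19.1 and 19.7 CPM in sgHDAC7, against 19.8, 16.2 and 14.99 CPM in sgNT. EEF1E1 had 16.6, 15.9 and 15.7 CPM in sgHDAC7, against 21.4, 18.4 and 16.5 CPM in sgNT. By structural class, leaving out EPRS1, 4 of 9 class I and 2 of 9 class II cytosolic genes fell, against the same 1.7%. Their medians were -0.19 and -0.34. The difference between these subgroups was not tested.

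The cytosolic genes were also set side by side by match to TGATGNAA, and the difference between those with and without one was not tested. Of the 7 with a match 4 fell (CARS1, GARS1, MARS1 and TARS1), against 1.7% of all genes called lower. The median log2 fold change of the 7 was -0.51, with a range from -0.97 to -0.19, against -0.0016 over all genes. Of the 12 with a window but no match 1 fell (WARS1, the lowest of all), with a median of 0.03 and a range from -1.004 to 0.24, so the values overlapped. In replicates 2 and 3 the medians of the log2 ratios were -0.70 with a match and 0.06 without, and in replicate 1 they were -0.18 and -0.05. SARS1 and EPRS1 were lower in sgHDAC7 replicates 2 and 3 with no match in their windows. YARS2, the mitochondrial gene with a match, had a log2 fold change of -0.09 ± 0.11.

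No mitochondrial synthetase was called in either direction with group alone. At an unadjusted edgeR p under 0.05 stood 1 lower and 3 higher of the 16 genes, against 1383 and 1270 of all 13841 genes. DESeq2 called 1 lower and 0 higher, against 424 and 294 of all genes. limma called 0, against 210 lower and 152 higher of all genes. The median log2 fold change was 0.07, with a range from -0.38 to 0.35. NARS2, the mitochondrial asparagine enzyme, was the lowest. It had 30.7, 35.2 and 31.1 CPM in sgHDAC7, against 40.6, 44.2 and 41.2 CPM in sgNT, with no overlap (log2 fold change -0.38 ± 0.09, edgeR adjusted p = 0.0635). DESeq2 called it (adjusted p = 0.0417). Its ratio was alike in both replicate sets, at -0.40 in replicate 1 and -0.36 in replicates 2 and 3.

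MARS2, which charges the single mitochondrial methionine tRNA, was the highest. It had 30.7, 31.4 and 31.6 CPM in sgHDAC7, against 27.4, 20.8 and 25.1 CPM in sgNT (log2 fold change 0.35 ± 0.12, edgeR adjusted p = 0.14). AARS2 (alanine) had 56.9, 52.9 and 53.98 CPM in sgHDAC7, against 49.2, 47.0 and 44.7 CPM in sgNT (0.22 ± 0.08, edgeR adjusted p = 0.171). VARS2 (valine) had 80.6, 85.3 and 81.1 CPM in sgHDAC7, against 74.9, 66.95 and 73.1 CPM in sgNT (0.20 ± 0.07, edgeR adjusted p = 0.174). EARS2 (glutamate) had 48.8, 52.3 and 49.5 CPM in sgHDAC7, against 47.2, 42.9 and 45.8 CPM in sgNT (0.15 ± 0.08, edgeR adjusted p = 0.345). In these 4 genes all sgHDAC7 libraries lay above all sgNT libraries, which 13% of all genes did.

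The remaining 11 mitochondrial genes overlapped between the groups. CARS2, FARS2, HARS2, IARS2, LARS2, PARS2, RARS2, SARS2, TARS2, WARS2 and YARS2 had log2 fold changes between -0.13 and 0.13. IARS2 (isoleucine) was the most abundant of the set, with 166, 192 and 178 CPM in sgHDAC7, against 180, 190 and 178 CPM in sgNT. PARS2 (proline) was the least abundant, with 8.44, 9.48 and 12.04 CPM in sgHDAC7, against 8.49, 9.51 and 10.2 CPM in sgNT. Its lowest library held 86 counts, so small differences in PARS2 were not detectable at this depth. WARS2, the partner of WARS1, had 15.1, 15.9 and 12.1 CPM in sgHDAC7, against 13.5, 14.99 and 12.8 CPM in sgNT. CARS2, the partner of CARS1, had 47.8, 42.4 and 51.7 CPM in sgHDAC7, against 48.3, 41.1 and 41.9 CPM in sgNT. Neither shared the lower level of its cytosolic partner. YARS2 had 34.2, 31.8 and 32.5 CPM in sgHDAC7, against 33.5, 31.2 and 39.9 CPM in sgNT. TARS2 had 44.1, 46.1 and 48.5 CPM in sgHDAC7, against 42.4, 45.8 and 47.4 CPM in sgNT. SARS2 had 88.3, 80.7 and 92.5 CPM in sgHDAC7, against 82.3, 88.1 and 93.3 CPM in sgNT. The libraries of YARS2, TARS2 and SARS2 were likewise mixed, with no group on 1 side. FARS2 and HARS2 were high in sgNT replicate 1 alone, at 25.6 and 30.2 CPM, while their other 5 libraries lay at 17.1 to 18.6 and 22.2 to 25.3 CPM.

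Set against each other by amino acid, cytosolic log2 fold changes were below mitochondrial ones in 13 of 17 gene pairs covering 16 amino acids. The gap was widest for cysteine (-0.97 for CARS1 and 0.11 for CARS2), tryptophan (-1.004 for WARS1 and 0.06 for WARS2) and methionine (-0.64 for MARS1 and 0.35 for MARS2). Asparagine was the exception among the lower genes, at -0.34 for NARS1 and -0.38 for NARS2. For phenylalanine (FARSA and FARSB with FARS2) and histidine the cytosolic value was the higher. HARS1 and HARS2 lie head to head on chromosome 5 and their annotated ends overlap by 437 bases (GENCODE 29), and their log2 fold changes were 0.03 ± 0.08 and -0.12 ± 0.13.

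The summed level of the cytosolic set was 3842, 3920 and 3885 CPM in sgHDAC7, against 4174, 5074 and 5195 CPM in sgNT. That of the mitochondrial set was 789, 830.2 and 821 CPM in sgHDAC7, against 802, 782 and 791 CPM in sgNT. The cytosolic sum separated the groups, with sgNT replicate 1 nearest to sgHDAC7, and the mitochondrial sum did not. The ratio of the sums was 4.87, 4.72 and 4.73 in sgHDAC7, against 5.20, 6.49 and 6.57 in sgNT. Per kilobase of annotated exon, the median level of a cytosolic gene was 35.98 CPM in sgHDAC7 and 46.5 CPM in sgNT. The median of a mitochondrial gene was 10.2 CPM per kilobase in sgHDAC7 and 9.04 in sgNT.

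**Figure D4:**
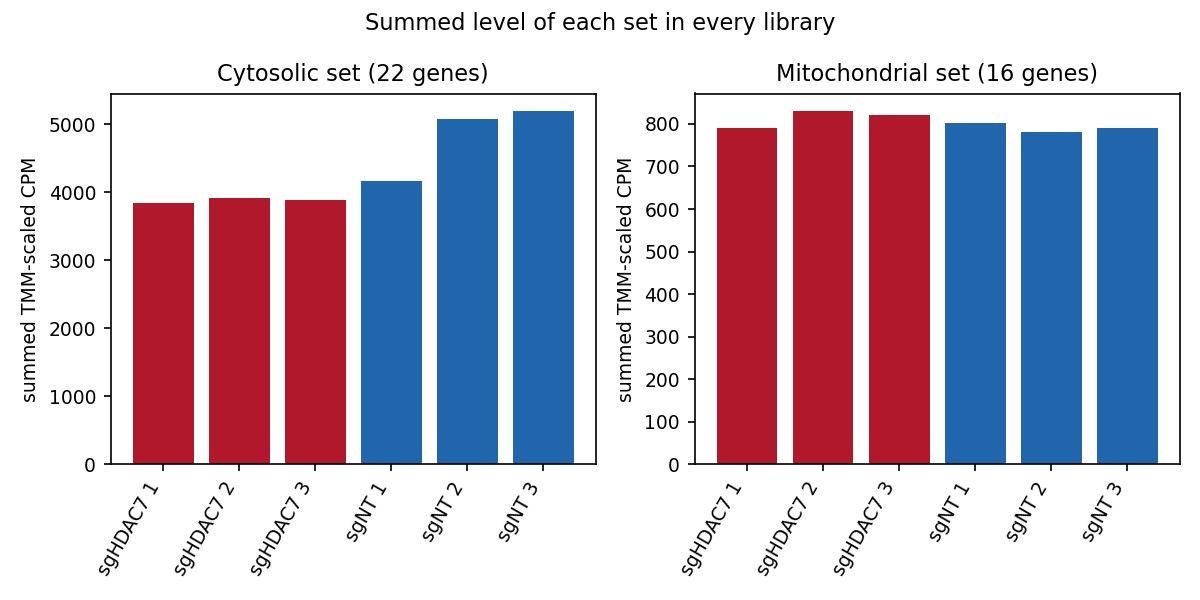
Summed TMM-scaled CPM of the 22 cytosolic genes (left) and the 16 mitochondrial genes (right) in every library, bars from 0. The cytosolic sums of sgHDAC7 (3842 to 3920) lie below those of sgNT (4174 to 5195), and the mitochondrial sums overlap (789 to 830.2 in sgHDAC7 and 782 to 802 in sgNT).

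The size of the difference varied between replicates. The 6 called genes had log2 ratios of -0.46 (WARS1) to -0.18 (TARS1) between the replicate 1 libraries, and of -1.22 (CARS1) to -0.52 (TARS1) between replicates 2 and 3. All 6 were below 0 in both. CARS1 itself stood at -0.25 in replicate 1. With 1 replicate 1 library per group this variation has no test.

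With a term for replicate 1, edgeR called 11 cytosolic genes lower and 0 higher, against 6.81% and 5.78% of all genes. The 5 added were AARS1, EPRS1, IARS1, NARS1 and SARS1 (adjusted p = 0.0136, 0.00956, 0.0393, 0.0064 and 0.0175). All 7 cytosolic genes with a match to TGATGNAA were among the 11, with 3 of the 12 without a match and YARS1. In the mitochondrial set NARS2 was then called lower (log2 fold change -0.38, adjusted p = 0.0137) and MARS2 higher (0.36, adjusted p = 0.0463). This term assumes the same guide difference in replicate 1 as in replicates 2 and 3, while the log2 ratios of all 11 lay closer to 0 in replicate 1. They were -0.26 and -1.07 for GARS1 and -0.25 and -0.81 for MARS1, in replicate 1 and in replicates 2 and 3. AARS1 stood at -0.014 and -0.70 in the same order. On replicates 2 and 3 alone edgeR called 11 cytosolic genes lower, against 10.9% of all genes, and FARSA and FARSB higher (log2 fold changes 0.15 and 0.21), against 9.72%. MARS2 and VARS2 were called higher there, and NARS2 lower. In all, 13 of the 38 were called with the term and 16 on replicates 2 and 3, against 12.6% and 20.6% of all genes.

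**Figure D5:**
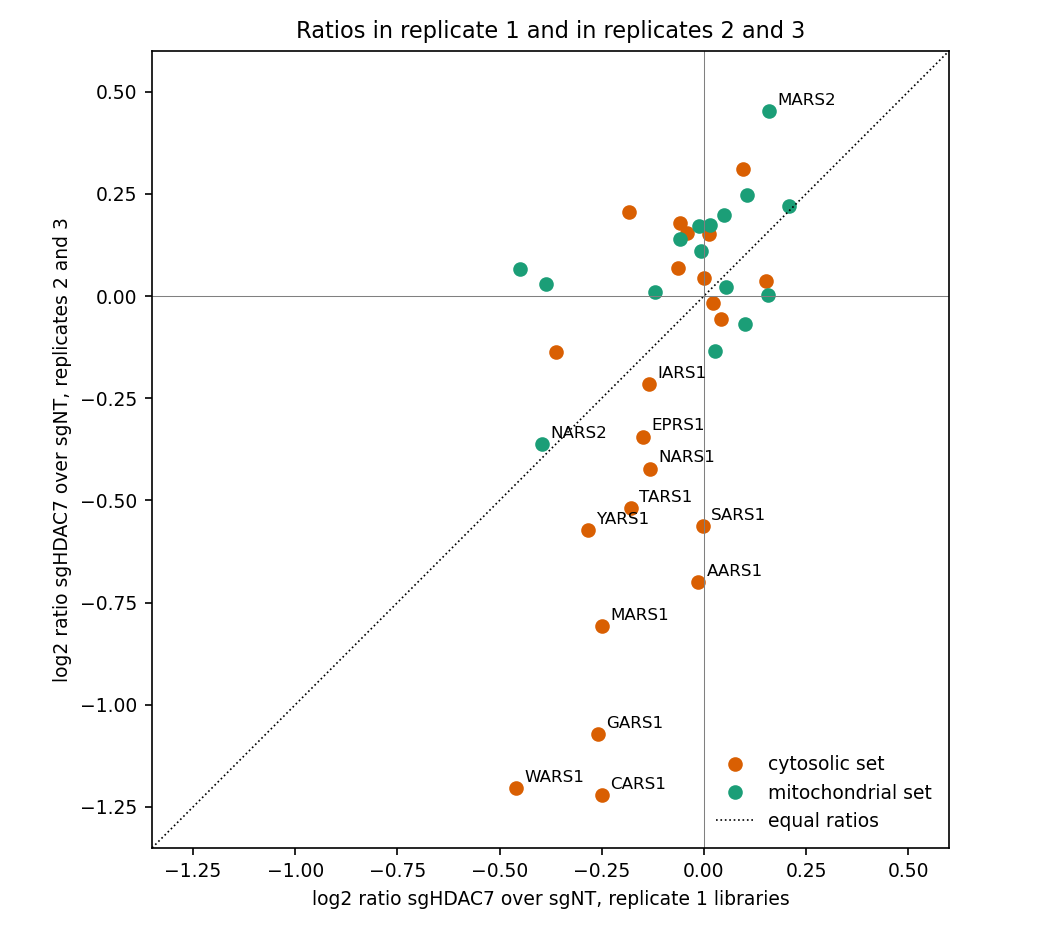
log2 ratio of sgHDAC7 over sgNT between the replicate 1 libraries (horizontal) and between replicates 2 and 3 (vertical, difference of mean log2 values) for the 38 genes, with the 13 genes named that were called with a term for replicate 1. The named cytosolic genes lie below the dotted line of equal ratios, and NARS2 lies close to it at -0.40 and -0.36.

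The 6 calls depended on which libraries were present, as did the number of calls over all genes. Fits that each left out 1 library called from 27 to 1588 of the 13841 genes, the most without sgNT replicate 1. Without sgHDAC7 replicate 1, 2 or 3, or without sgNT replicate 2 or 3, 0 of the 6 passed the edgeR test (adjusted p from 0.0617 to 0.199), while all 6 kept an unadjusted p under 0.05 and their sign. Without sgNT replicate 1, all 6 passed among 11 cytosolic genes called lower, against 6.18% of all genes. NARS2 was then called lower and MARS2 higher (5.29% of all genes), so 13 of the 38 were called, against 11.5%.

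Genes that work beside the synthetases were taken from lists of the same pathway. DTD2, a proofreading deacylase, and MTFMT, which formylates the mitochondrial initiator tRNA, had log2 fold changes of 0.28 and -0.27 and were not called (edgeR adjusted p = 0.219 and 0.33).

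Of 12 genes of tRNA processing and export, 1 fell and 0 rose by edgeR, against 1.7% and 1.16% of all genes. The lower gene was XPOT, which carries tRNA out of the nucleus. It had 177, 183 and 173 CPM in sgHDAC7, against 205, 274 and 270.1 CPM in sgNT (log2 fold change -0.49 ± 0.10, edgeR adjusted p = 0.0415). TSEN15, a subunit of the tRNA splicing endonuclease, stood at -0.43 ± 0.12 (edgeR adjusted p = 0.0799), ELAC2, which trims tRNA trailers, at 0.22, and TRNT1, which adds the CCA end, at -0.20. None of 9 elongation factors was called by edgeR, DESeq2 or limma. At an unadjusted edgeR p under 0.05, 2 were lower, against 1383 of all 13841 genes. Among them EEF1A1, which delivers charged tRNA to the ribosome, stood at -0.18 ± 0.06 and its mitochondrial counterpart TUFM at -0.09 ± 0.06.

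Of 7 genes of eIF2 phosphorylation and sensing, 0 were called by edgeR, DESeq2 or limma. At an unadjusted edgeR p under 0.05, 1 was lower, against 1383 of all 13841 genes. EIF2AK4 had 107, 109.7 and 117 CPM in sgHDAC7, against 106, 115 and 119 CPM in sgNT, with a log2 fold change of -0.03 ± 0.07. IMPACT, an inhibitor of GCN2 activation, stood at -0.30 ± 0.09 (edgeR adjusted p = 0.102). Of 11 genes of the ATF4 pathway 7 fell and 0 rose by edgeR, against 1.7% and 1.16% of all genes. Their median log2 fold change was -1.81, and that list was compiled with earlier results of these data known. DESeq2 called 10 of the 11 lower and limma 3, against 424 and 210 of all 13841 genes. The median log2 ratio of the list was -0.30 in replicate 1 and -2.26 in replicates 2 and 3. ATF4 itself had 400.3, 404 and 411 CPM in sgHDAC7, against 440.5, 644 and 668 CPM in sgNT (-0.53 ± 0.13, edgeR adjusted p = 0.0687). Its libraries stood in the same pattern as the lower synthetases, with sgNT replicate 1 between the groups, and its part in their levels was not tested. ASNS, which makes asparagine, had 3.62, 2.84 and 3.72 CPM in sgHDAC7, against 3.06, 12.2 and 13.5 CPM in sgNT (-1.50 ± 0.45, edgeR adjusted p = 0.109), and its groups overlapped.

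Some of these genes share ground with neighbours, and the use of strand in counting is not given in the sources used here. Annotated exons of MARS1 overlap DDIT3 and ARHGAP9 on the opposite strand, and ARHGAP9 had 36.8 to 55.5 CPM over the 6 libraries. DDIT3, itself a target of ATF4, had 12.9, 11.98 and 12.8 CPM in sgHDAC7, against 16.1, 29.98 and 28.6 CPM in sgNT. Its levels were lower in sgHDAC7 as those of MARS1 were. Exons of GARS1, WARS1 and YARS1 overlap GARS1-DT (at most 1.71 CPM), WDR25 (at most 8.20 CPM) and S100PBP (27.7 to 43.6 CPM) on the opposite strand. Reads in such overlaps cannot be told apart without strand. The pseudogene EEF1E1P1 had at most 0.718 CPM, and reads may be shared between it and EEF1E1.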

How the data were processed

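The authors deposited 1 table of whole-number counts per gene for 6 libraries of messenger RNA captured on poly-T beads, per the labels' protocols. Its name says CPM, but 100% of the values are whole and totals differ between libraries, so the deposited values were treated as counts. The submitters' processing notes name hg38 and edgeR 3.32.1 without a role. Not given in the sources used here are the aligner, counter, annotation and strand. Columns named NC were taken as sgNT, the only other group, and 0 columns were left over.

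The 13841 genes with a mean of at least 1 CPM were tested with edgeR 4.0.16 (R 4.3.3), quasi-likelihood, TMM scaling and group alone, two-sided, with Benjamini-Hochberg adjustment over all of them and a threshold of 0.05. A standard error is the size of the log2 fold change divided by the root of edgeR's F. Ratios within replicates use log2(CPM + 0.5). Alternatives used DESeq2 1.42.0 and limma 3.58.1. Scripts were tested on simulated counts. The members, lists and tests were chosen with earlier results of these data known. Values are given in every library for members called, for the 5 next by p in each set and for partners charging the same amino acid where shown, and other members by range. Promoter letters come from RefSeq on GRCh38.p14, and gene positions, exon lengths and overlaps from GENCODE 29 on GRCh38. Genes were matched to GENCODE by Ensembl gene, since 17 of the 38 carry older symbols there. Every member had at least 86 counts in each library. No library repeated another: replicates 2 and 3, the closest, differed by a chi-square per degree of freedom of 3.25 in sgHDAC7 and 3.55 in sgNT. Some genes of the charging list are not reported here.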

Additional observations from a re-analysis of the deposited data

How the results depend on the processing

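The 6 cytosolic calls stood under size factors of DESeq2 in edgeR, upper quartile scaling, no filter and filterByExpr. limma called 5 at either pseudocount (0.5 or 2), without CARS1, and DESeq2 called 9 cytosolic genes. Over all genes DESeq2 called 718, the term for replicate 1 called 1743, and replicates 2 and 3 alone called 2847, against 396. Mitochondrial genes called lower came to 1 in each of these fits. Those called higher came to 1 with the replicate 1 term and 2 on replicates 2 and 3. Cytosolic genes called lower came to 11 in both of the last fits, and called higher to 2 on replicates 2 and 3.

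The replicate numbers were checked for pairing. Deviations of same-numbered libraries correlated at 0.30 in replicate 1, 0.11 in replicate 2 and 0.097 in replicate 3. Of 6 libraries, 2 correlated best with their own number. With 3 libraries per group, this check cannot tell whether same-numbered libraries share more than a number. With the replicate block edgeR called 998 genes, 8 cytosolic genes lower (4.1% of all genes) and 1 mitochondrial gene lower.

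Leaving out single libraries gave 27 to 1588 genes over all, 0 to 11 cytosolic genes lower, and 0 to 1 mitochondrial genes lower and higher. The log2 fold change of HDAC7 ran from -1.08 to -0.92 and was called in each of the 6 fits. The cytosolic median ran from -0.23 to -0.18 and the mitochondrial median from 0.018 to 0.081. Members near 0 changed sign with a library left out, none of them called. HARS1 ran from -0.021 to 0.090, KARS1 from -0.020 to 0.047, LARS1 from -0.11 to 0.028 and QARS1 from -0.060 to 0.044. FARS2 ran from -0.24 to 0.078, HARS2 from -0.20 to 0.016, IARS2 from -0.093 to 0.011 and PARS2 from -0.075 to 0.18. SARS2 ran from -0.059 to 0.033, TARS2 from -0.012 to 0.067, WARS2 from -0.023 to 0.17 and YARS2 from -0.16 to 0.020. On replicates 2 and 3 alone FARS2, HARS2 and IARS2 stood at 0.068, 0.031 and 0.0086. The cause was not tested for these changes, beyond the smaller number of libraries in each fit. Depth limits the least abundant member, PARS2, most.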
